A study of Mus musculus with 4 samples.

Results

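The genes described here are 40 mouse genes of the signalling machinery next to the T-cell receptor (TCR) and the costimulatory receptor CD28. They were taken by symbol from a list of receptor chains, coreceptors, kinases, adaptors, NFAT factors and restraining enzymes. All 40 were among the 11027 genes in the deposited tables and among the 10960 genes tested, and together they took between 1.45% and 1.67% of the counts of a library.

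RNA-seq was performed on CD4+ T cells of wild-type C57BL/6 mice aged 7 to 8 weeks, to learn how the HMG-box protein Tox2 acts in T follicular helper (Tfh) differentiation. In all 4 groups, naive cells sourced from lymph nodes and spleen were activated and infected in neutral conditions, and GFP-positive cells were sorted before the cultures. The virus was Tox2-RV-GFP or, as the control, a GFP-only retrovirus. The Th0 culture blocked IFN-gamma, IL-2 and IL-4 with antibodies, and in the Tfh-like culture IL-6 was given on top of this blockade. Each group had 1 library, and the labels do not say how many mice or cultures each came from. The cells that carried Tox2 had it from a virus, in addition to their own copies of the gene.

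When the TCR is engaged, the kinase Lck, brought in by the coreceptor CD4, phosphorylates the CD3 and zeta chains, and the kinase Zap70 docks there and phosphorylates the adaptors Lat and SLP-76. This assembly activates phospholipase C-gamma1, whose products release calcium, which sends NFAT factors to the nucleus, and leave diacylglycerol in the membrane, which recruits Rasgrp1 to the Ras pathway and protein kinase C-theta to the NF-kB pathway through Bcl10 and Malt1. Phosphatases, ubiquitin ligases and diacylglycerol kinases limit the signal, and in Tfh cells its strength and the costimulatory receptors CD28 and ICOS are known to bear on differentiation.

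Total counts lay between 13015283 and 13673774. Tox2 had 144 and 851 counts in Th0 and Tfh-like cells with GFP, and 35297 and 32246 with Tox2, so both libraries labelled Tox2 had the higher level. The files do not tell viral reads from those of the cells' own gene. Of the markers of CD4 T cells, 4 of 5 were in the tables, each with at least 3624 counts in every library. Of the CD8 markers only Cd8b1 was in the tables (127 to 206 counts), and the B-cell marker Cd79a had 10 to 24 counts. The markers of myeloid, dendritic and NK cells that were in the tables had 1 to 159 counts, and genes outside the tables were not analysed here. With GFP first, the myeloid markers Cd68 (99 and 149 in Th0, 91 and 159 in Tfh-like) and Itgam (19 and 16, 6 and 19) and the dendritic markers Zbtb46 (33 and 45, 25 and 45) and Xcr1 (10 and 3, 1 and 21) were all higher with Tox2 in Tfh-like cells, and in Th0 only Cd68 and Zbtb46 of these 4 were. None of the 4 passed for Tox2 in edgeR (1, Cd68, at an unadjusted p under 0.05). The NK marker Klrd1 (23 and 18, 54 and 49) rose in Tfh-like cells in edgeR. Their part in the results was not tested. With bulk RNA, fewer cells that express a gene and less RNA per cell cannot be told apart.

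Levels of different genes were compared as deposited FPKM, which scales counts by gene length. The 40 genes spanned a 363-fold range, from 1.03 FPKM (Txk, a Tec-family kinase, in Th0 with GFP) to 372 FPKM (Cd5, a receptor that dampens TCR signals, in Tfh-like with GFP). In each library at least 38 of the 40 were above 6.67 FPKM, the lowest of the 4 library medians over all genes listed. Cd5 had the highest level of the 40 with GFP, at 337 FPKM in Th0 and 372 in Tfh-like. With Tox2 the highest was Cd4, at 350 and 319 FPKM. The place of Cd5 rests on its length: its deposited FPKM corresponds to 2069 bases, against 4928 bases of merged GENCODE exons. On the latter its FPKM with GFP would be 141.5 (Th0) and 156 (Tfh-like), the fifth of the 40 in both, and the range of the 40 would be 341-fold with Cd4 at the top. Deposited FPKM of Cd6, Ubash3a and Malt1 likewise corresponds to shorter lengths than GENCODE's (3404 against 7968, 3328 against 11239 and 11735 against 18040 bases), which bears on their levels against other genes and not on their folds. The kinases Lck (223 to 235 FPKM) and Zap70 (141 to 218 FPKM) were also among the most abundant, and the adaptor Sla2 (5.96 to 8.78 FPKM) was near the bottom in all 4 libraries.

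**Figure D1:**
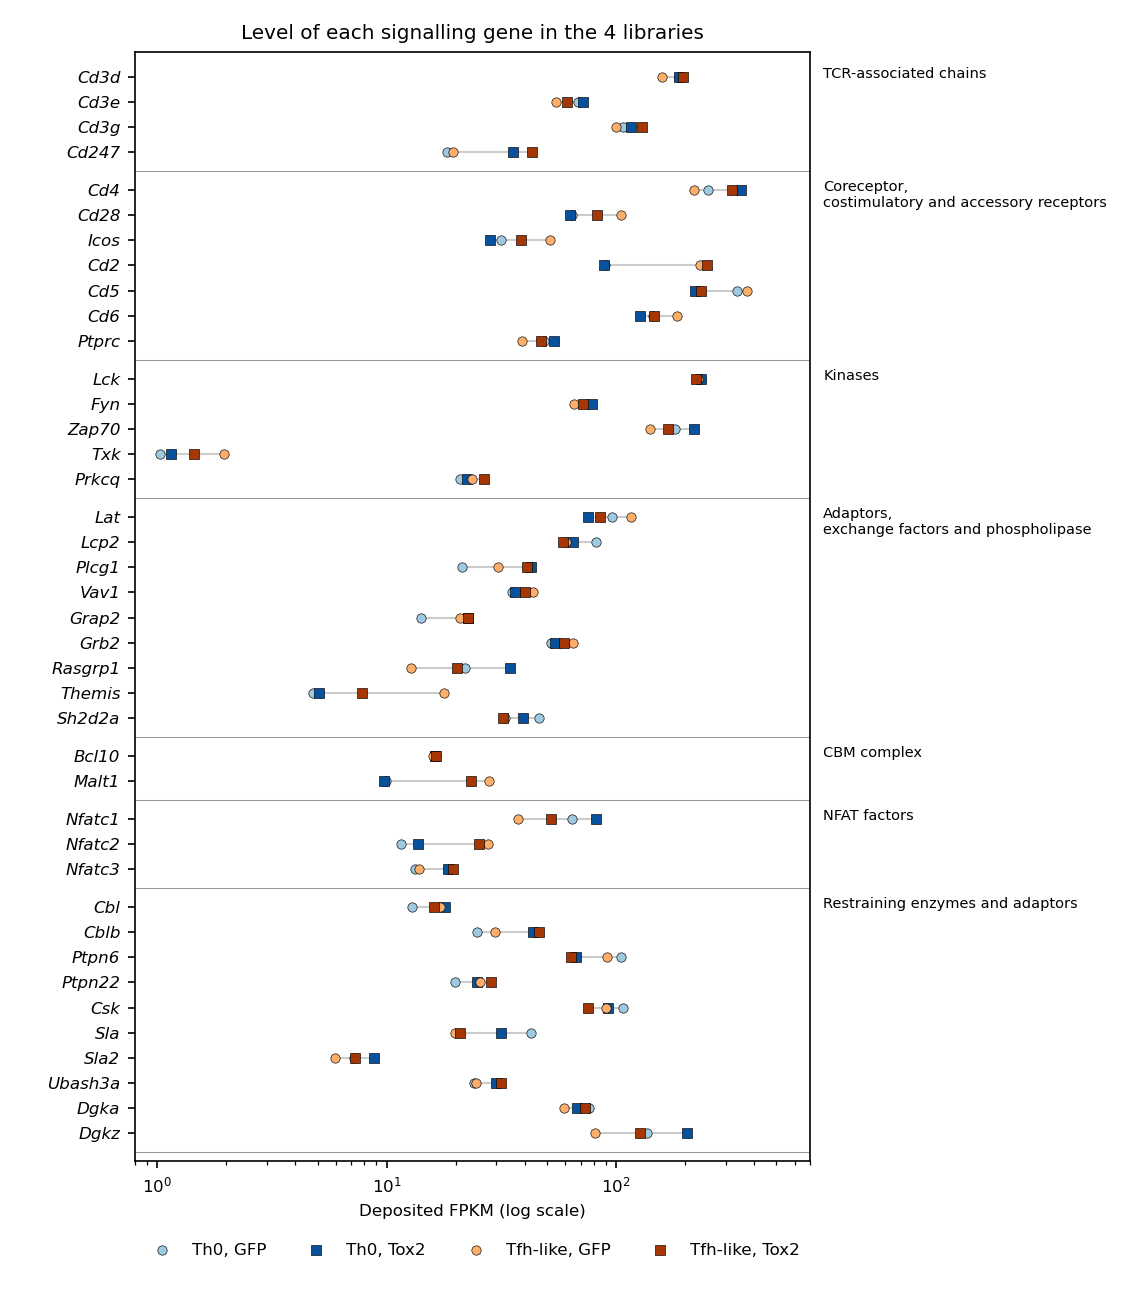
Deposited FPKM (log axis) of the 40 signalling genes in the 4 libraries, grouped by role; circles are GFP libraries, squares Tox2 libraries, and a line joins the lowest and highest value. Cd247, Cblb and Plcg1 have both squares to the right of both circles, Cd5 and Ptpn6 have both to the left, and Cd2, Malt1 and Nfatc2 separate by culture.

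Tox2 went with more mRNA of 7 of the 40 genes and less of 2. Cd247, Cd4, Plcg1, Rasgrp1, Nfatc3, Cblb and Dgkz rose, and Cd5 and Ptpn6 fell. The risers came from both arms of the pathway: Cd247 encodes the zeta chain, Plcg1 the phospholipase and Rasgrp1 a Ras activator, whereas Cblb and Dgkz encode enzymes that limit the signal. Both genes that fell encode inhibitors, the receptor CD5 and the phosphatase SHP-1. Calls are from edgeR's quasi-likelihood test over both cultures at an adjusted p under 0.05. By this rule 4.07% of all genes tested rose and 2.74% fell, against 7 (17.5%) and 2 (5%) of the 40 signalling genes. At an unadjusted p under 0.05 there were 17 of the 40, and 3003 of all genes tested. The fit takes its spread from how far the Tox2 fold differs between the cultures, moderated over all genes, because no group has a replicate. It therefore says nothing of the spread between cultures or mice.

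The median log2 fold of the 40 genes was 0.05 in Th0 and 0.10 in Tfh-like cells, against -0.00 in both over all genes, and 24 and 23 of the 40 were above 0. The machinery as a whole was thus near the middle of all genes, and 29 of the 40 (72.5%) had the same sign in both cultures, against 70.6% of all genes. Taken 1 pair of libraries at a time, a gene was called apart at 1.5-fold where the counting interval excluded no difference. In Th0, 5 of the 40 were higher with Tox2 (Cd247, Plcg1, Grap2, Rasgrp1 and Cblb), against 8.70% of all genes, and 2 lower (Cd5 and Ptpn6), against 4.85%. In Tfh-like cells 4 were higher (Cd247, Rasgrp1, Cblb and Dgkz), against 6.61% of all genes, and 2 lower (Cd5 and Themis), against 5.33%. Intervals of such pairs are exact 95% binomial intervals that cover counting error only, and these folds compare libraries.

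**Figure D2:**
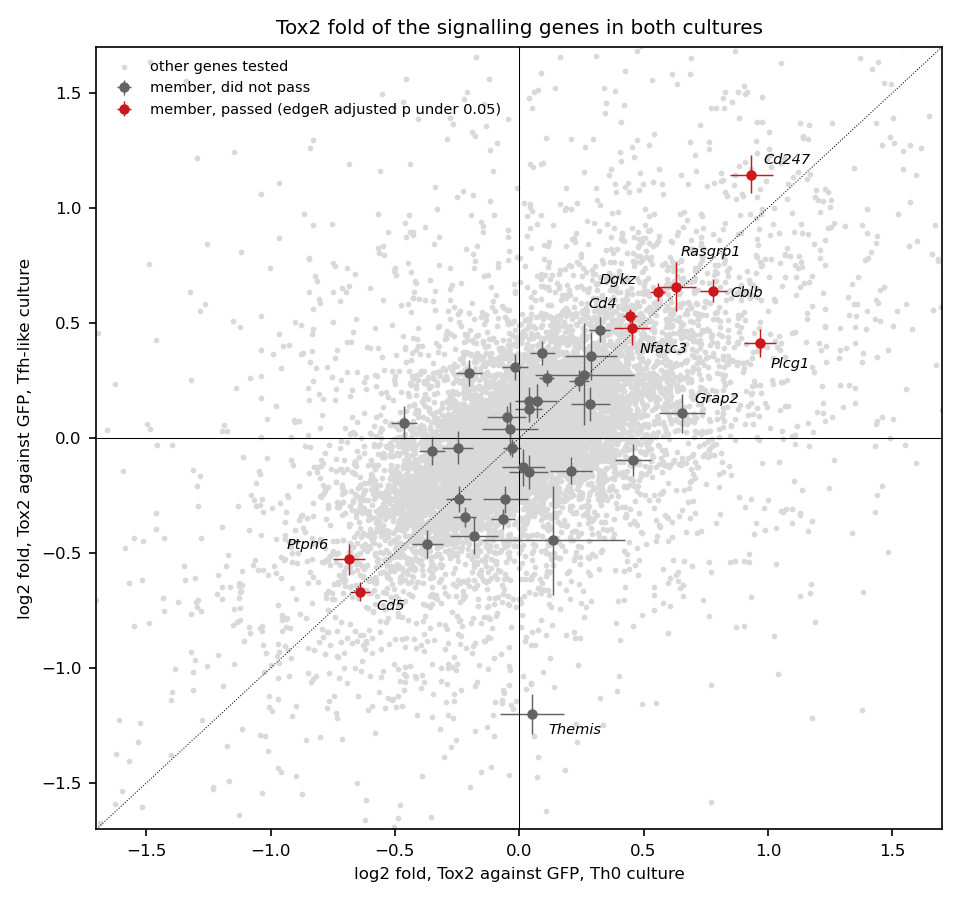
Log2 fold of Tox2 against GFP in Th0 (x axis) and in Tfh-like cells (y axis) for the 40 signalling genes, over other genes tested in grey; bars are 95% counting intervals, red marks genes that passed for Tox2, and grey genes beyond the axes are not drawn. Cd247 is the highest in Tfh-like cells, Cd5 and Ptpn6 sit at the lower left, and Themis lies off the diagonal with -1.20 in Tfh-like cells and 0.05 in Th0.

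Sequence upstream of the start sites was searched because several members moved together. RefSeq windows (GRCm38.p6) were matched for 31 of the 40 genes by symbol, and the 250 bases before each start were read on both strands for 10 motifs. The E-box CAGGTG was found in 13 of the 31 genes (41.9%) and in 19.4% of all 27025 genes with a window (17.2% of windows). A gene counted when any of its windows held it, and several members, such as Zap70, had multiple windows. The share of windows was not computed for the members. Among the 8 of the 31 that passed for Tox2, 6 held it (Cd247, Cd5, Dgkz, Plcg1, Ptpn6 and Rasgrp1), and among the other 23 it was in 7. The split by culture was alike. Only 5 of the 12 members that passed for culture had a window, and 4 of these held it (Dgkz, Nfatc2, Rasgrp1 and Zap70). Among the 26 with a window that did not pass for culture it was in 9. The motif was thus not particular to the Tox2 calls. The motif was singled out after its counts had been seen, and no test was made. A match describes letters only. The other motifs were in 0 to 6 of the 31 genes: the NFAT core TGGAAA in 6 (20.9% of genes), the GATA motif, AGATAA, in 4 (11.4%), the STAT motif, TTCNNNGAA, in 3 (8.13%), the RUNX motif, TGTGGTT, in 3 (5.08%) and the short TCF motif, TTCAAAG, in 2 (5.19%). In 0 of the 31 were the STAT palindrome TTCCNGGAA (1.09% of genes), the long TCF motif CTTTGATC (0.925%), the ETS motif CCGGAAG (7.83%) and the NF-kB motif (0.159%). CAGGTG was matched with no regard to overlap with other motifs.

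The 4 windows below belong to genes that passed for Tox2 and hold CAGGTG or its reverse complement CACCTG, in capitals, and each is read 5′ to 3′ on the gene's strand (GRCm38.p6). They lie at chr1:165788431-165788680 (plus strand), chr2:160731060-160731309 (plus strand), chr19:10738975-10739224 (minus strand) and chr6:124738710-124738959 (minus strand).
Cd247: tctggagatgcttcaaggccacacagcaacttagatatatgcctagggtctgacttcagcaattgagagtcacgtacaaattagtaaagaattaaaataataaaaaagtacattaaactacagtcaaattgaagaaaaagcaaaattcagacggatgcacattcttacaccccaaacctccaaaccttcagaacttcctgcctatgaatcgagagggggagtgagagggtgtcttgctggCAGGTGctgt
Plcg1: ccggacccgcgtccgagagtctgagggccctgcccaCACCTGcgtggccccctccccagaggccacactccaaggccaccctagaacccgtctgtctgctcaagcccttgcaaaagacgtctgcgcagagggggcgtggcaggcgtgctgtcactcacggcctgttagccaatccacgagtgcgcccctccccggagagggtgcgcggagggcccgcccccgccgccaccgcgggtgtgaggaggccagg
Cd5: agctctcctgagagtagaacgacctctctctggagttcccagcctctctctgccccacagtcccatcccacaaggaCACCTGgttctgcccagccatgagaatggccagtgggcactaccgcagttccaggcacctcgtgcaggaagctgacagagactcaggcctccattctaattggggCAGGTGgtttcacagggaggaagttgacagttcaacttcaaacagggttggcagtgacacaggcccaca
Ptpn6: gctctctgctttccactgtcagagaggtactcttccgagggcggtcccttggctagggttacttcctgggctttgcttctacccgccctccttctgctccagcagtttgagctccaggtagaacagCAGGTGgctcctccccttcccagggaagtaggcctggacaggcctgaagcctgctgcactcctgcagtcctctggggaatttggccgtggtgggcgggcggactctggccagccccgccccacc
The match begins 10 bases before the start in Cd247, 214 before it in Plcg1 and 124 before it in Ptpn6, and Cd5 has matches that begin 174 and 69 bases before it. The 4 were chosen for holding these letters, and the matches lie at different distances from the start.

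Among the receptor chains, Cd247 (GRCm38 chromosome 1, from 165788681 to 165877277 on the plus strand) had 1658 (GFP) and 3270 (Tox2) counts in Th0 culture. In Tfh-like culture it had 1684 and 3821. Both Tox2 libraries were higher than both GFP libraries, which differed little from each other. Cd247 rose 2.06-fold over both cultures (log2 fold 1.04, SE 0.11, edgeR adjusted p = 0.00607), with log2 folds of 0.93 (0.85 to 1.02) in Th0 and 1.15 (1.06 to 1.23) in Tfh-like cells. In the GENCODE annotation 3007 of its 5329 exon bases (56.4%) are also exon of Pou2f1, a gene on the opposite strand that encodes the factor Oct-1, and without a stated strand setting reads there cannot be told apart. Pou2f1 itself had 385, 698, 364 and 532 counts in Th0 with GFP, Th0 with Tox2, Tfh-like with GFP and Tfh-like with Tox2. It too rose with Tox2 (log2 fold 0.66, edgeR adjusted p = 0.0319). The Tox2 gain of Cd247 was 112 CPM (counts scaled to the library total) in Th0 and 157 CPM in Tfh-like cells, where all reads assigned to Pou2f1 with Tox2 came to 50.2 and 39.7 CPM.

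The 3 CD3 chains, which pair with the receptor and lie side by side on chromosome 9 (gaps of 1.36 and 11.4 kb), did not pass for Tox2. Cd3e had 4749 (GFP) and 5043 (Tox2) counts in Th0 culture, then 3624 and 4148 in Tfh-like culture. Cd3d had 5790, 5911, 4664 and 5924 counts in the same order, and Cd3g had 5932, 6536, 5315 and 7034. In each of the 3 the Tox2 fold was small in Th0 (log2 -0.02 to 0.09) and larger in Tfh-like cells (0.16 to 0.37), and all stayed under 1.5-fold. The level of zeta relative to CD3 epsilon therefore differed between libraries: Cd247 over Cd3e in FPKM was 0.267 (GFP) and 0.496 (Tox2) in Th0 culture, then 0.356 and 0.705 in Tfh-like culture.

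**Figure D3:**
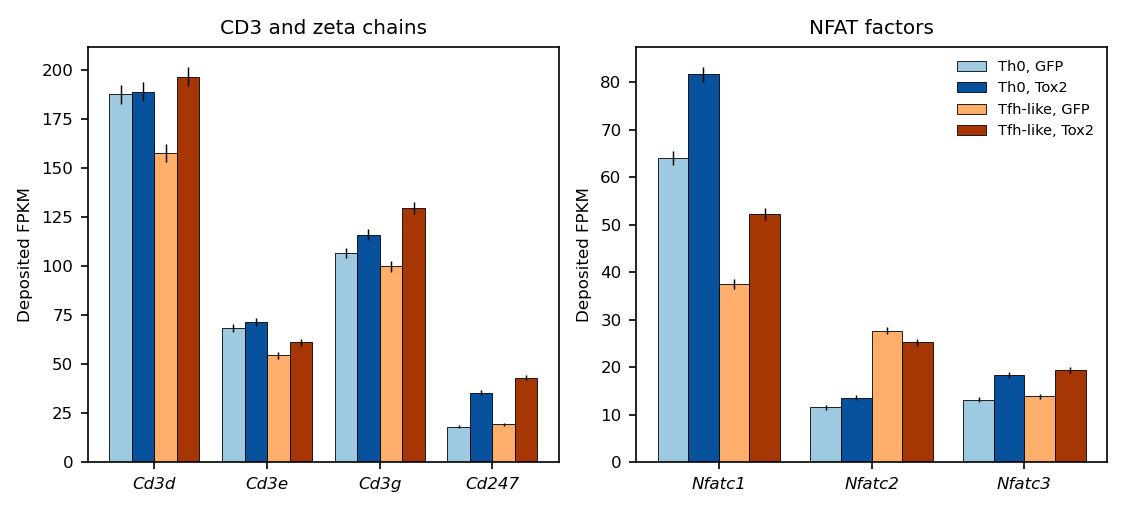
Deposited FPKM of the CD3 and zeta chains (left) and of the NFAT factors (right) in the 4 libraries, 1 bar each; bars carry 95% Poisson counting intervals (normal approximation). Cd247 is higher in both Tox2 libraries while Cd3e stays between 54.5 and 71.7 FPKM, and Nfatc2 is higher and Nfatc1 lower in Tfh-like cells than in Th0 with the same virus.

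Among the receptors, Cd4, the coreceptor for MHC class II, had 17253 (GFP) and 24305 (Tox2) counts in Th0 culture, and 14423 and 21364 in Tfh-like culture. It rose 1.40-fold (log2 fold 0.49, SE 0.09, edgeR adjusted p = 0.0336). Cd5, a scavenger-receptor family inhibitor of TCR signals, had 11858 (GFP) and 7862 (Tox2) counts in Th0 culture, and 12537 and 8089 in Tfh-like culture. Both Tox2 libraries were below both GFP libraries, with 1 library per group. Cd5 fell by 0.65 on the log2 scale (SE 0.09, edgeR adjusted p = 0.0168), by nearly the same amount in Th0 (-0.64, interval -0.68 to -0.60) and in Tfh-like cells (-0.67, -0.71 to -0.63). Cd6, the related receptor 50.3 kb away on chromosome 19, had 8416 (GFP) and 7470 (Tox2) counts in Th0 culture, then 10257 and 8286 in Tfh-like culture. Its log2 folds were -0.22 and -0.34 and it did not pass (edgeR adjusted p = 0.128). Cd28 (6720 and 6636 counts in Th0, 10460 and 8402 in Tfh-like, GFP first) and Icos (1837 and 1674, 2881 and 2201) did not pass for Tox2 either. Their log2 folds were -0.07 and -0.35 for Cd28 and -0.18 and -0.42 for Icos.

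Csk and the diacylglycerol kinases were grouped with the restraining genes, which leaves 5 kinases here (Lck, Fyn, Zap70, Txk and Prkcq). None of these 5 passed for Tox2 in edgeR, or in DESeq2. By edgeR 4.07% of all genes rose and 2.74% fell. None of the 5 was 1.5-fold apart between viruses. At an unadjusted p under 0.05 there was 1, Zap70, in edgeR. Lck had 11683, 11826, 10872 and 10825 counts in Th0 with GFP, Th0 with Tox2, Tfh-like with GFP and Tfh-like with Tox2. Its highest scaled level was 1.07 times the lowest, the narrowest range of the 40 genes after Bcl10 (1.04 times). Zap70 had 9221 (GFP) and 11261 (Tox2) counts in Th0 culture, and 6858 and 8355 in Tfh-like culture, a log2 Tox2 fold of 0.24 and 0.25. The Tox2 folds of Fyn, Lck's relative, Prkcq, which encodes protein kinase C-theta, and Txk are in the plot of both effects.

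Plcg1, the phospholipase that splits membrane lipid into the calcium and diacylglycerol signals, had 2843 (GFP) and 5751 (Tox2) counts in Th0 culture. In Tfh-like culture it had 3896 and 5319. It was higher with Tox2 in both cultures, by 1.96-fold in Th0 (log2 0.97, 0.90 to 1.03) and 1.33-fold in Tfh-like cells (0.41, 0.35 to 0.47). Over both, Plcg1 rose by a log2 fold of 0.69 (SE 0.15, edgeR adjusted p = 0.0440). With only genes of at least 5 CPM tested its adjusted p was 0.0534, and over 8 alternatives it ran from 0.00422 to 0.0870. Of its exon bases 4.82% are shared with Zhx3 and 3.16% with Gm27206, both on the opposite strand. Zhx3 too was higher with Tox2, with 393 against 706 counts in Th0 culture and 350 against 455 in Tfh-like culture (GFP first). It did not pass (log2 fold 0.58, edgeR adjusted p = 0.0630). The Tox2 gain of Plcg1 was 202 and 99.0 TMM-scaled CPM, where all reads assigned to Zhx3 with Tox2 came to 50.8 and 34.0. The adaptor gene Grap2, whose protein GADS links SLP-76 to Lat, had a like pattern of 1503 against 2446 counts in Th0 culture and 2125 against 2348 in Tfh-like culture (GFP first). With Tox2 it was higher by 1.57-fold in Th0 and by 1.08-fold in Tfh-like culture, and did not pass (edgeR adjusted p = 0.156).

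Rasgrp1, the diacylglycerol-dependent activator of Ras, had 2088 (GFP) and 3344 (Tox2) counts in Th0 culture, and 1170 and 1892 in Tfh-like culture. Dgkz, the diacylglycerol kinase zeta that removes this lipid, had 14538 against 22105 counts in Th0 culture and 8295 against 13206 in Tfh-like culture, again with GFP first. In both genes the Tox2 library was the higher of each culture and the Th0 library the higher of each virus. Rasgrp1 rose 1.56-fold with Tox2 (log2 fold 0.64, SE 0.10, edgeR adjusted p = 0.0193) and Dgkz 1.51-fold (0.60, SE 0.09, adjusted p = 0.0214). Their Tox2 folds were close in both cultures, 0.63 and 0.66 for Rasgrp1 and 0.56 and 0.63 for Dgkz on the log2 scale. Dgka, the other diacylglycerol kinase of T cells, had 6155 (GFP) and 5530 (Tox2) counts in Th0 culture, then 4619 and 5766 in Tfh-like culture. Dgka did not pass, with log2 folds of -0.20 and 0.28. Of Dgkz's exon bases 3.54% are shared with Gm9821 on the opposite strand, which had 1237, 2943, 697 and 1467 counts in the same order as Dgkz.

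Of the other adaptors, the gene of the scaffold Lat had 4501 (GFP) and 3602 (Tox2) counts in Th0 culture, and 5230 and 3899 in Tfh-like culture. Its log2 folds were -0.37 and -0.46 and it missed the threshold (edgeR adjusted p = 0.0571). Themis, an adaptor of developing T cells that binds SHP-1, differed most between the cultures. It had 952 (GFP) and 1020 (Tox2) counts in Th0 culture, against 3382 and 1510 in Tfh-like culture. The library of Tfh-like cells with GFP stood above the other three. Its Tox2 fold was 0.05 (-0.08 to 0.18) in Th0 and -1.20 (-1.29 to -1.11) in Tfh-like cells, a difference of -1.25 (counting interval -1.40 to -1.10). It was the only one of the 40 whose Tox2 folds differed by 1.5-fold or more, where 5.65% of all genes differed this far with the lower fold in Tfh-like cells and 3.59% with the higher. Without replicates this difference was not tested, and over both cultures Themis did not pass for Tox2 (edgeR adjusted p = 0.216).

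Of the CBM genes, Bcl10 had 1271, 1280, 1185 and 1249 counts in Th0 with GFP, Th0 with Tox2, Tfh-like with GFP and Tfh-like with Tox2. Neither Bcl10 nor Malt1, the paracaspase, passed for Tox2 (log2 folds 0.00 and -0.16). Among the NFAT factors, Nfatc3 had 2638 (GFP) and 3730 (Tox2) counts in Th0 culture, and 2651 and 3784 in Tfh-like culture. It rose 1.38-fold (log2 fold 0.46, SE 0.10, edgeR adjusted p = 0.0419), nearly alike in both cultures (0.45 and 0.48). It did not pass with DESeq2 (log2 fold 0.45, adjusted p = 0.0627) or with the trend of counts on gene length removed, and its adjusted p ran from 0.0209 to 0.119 over 8 alternatives. Nfatc1 had 8097 against 10472 counts in Th0 culture and 4540 against 6451 in Tfh-like culture (GFP first), and missed the threshold (log2 fold 0.40, edgeR adjusted p = 0.0655).

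Among the restraining genes, Cblb, an E3 ubiquitin ligase that raises the need for CD28 signals, had 4431 (GFP) and 7870 (Tox2) counts in Th0 culture. In Tfh-like culture it had 5038 and 8054. It rose 1.64-fold (log2 fold 0.71, SE 0.10, edgeR adjusted p = 0.0156), while its relative Cbl had 2704 against 3839 counts in Th0 culture and 3426 against 3289 in Tfh-like culture and did not pass. Cblb over Cbl in FPKM was 1.93 and 2.42 in Th0 and 1.73 and 2.89 in Tfh-like cells, with GFP first. Ptpn6, the gene of the phosphatase SHP-1, had 5002 (GFP) and 3216 (Tox2) counts in Th0 culture, and 4158 and 2958 in Tfh-like culture. Both Tox2 libraries were again below both GFP libraries, and Ptpn6 fell by 0.61 on the log2 scale (SE 0.10, edgeR adjusted p = 0.0250). Of its exon bases 6.96% are shared with the antisense gene Gm20531. Of the 10 restraining genes, 2 rose and 1 fell with Tox2, beside 4.07% and 2.74% of all genes. At an unadjusted p under 0.05 in edgeR 3 were higher and 2 lower, beside 14.0% and 13.4% of all genes. The inhibitor gene Cd5, which fell, was grouped with the receptors and is not among the 10. Csk, the kinase that keeps Lck inactive, and the phosphatase gene Ptpn22 had log2 folds of -0.25 and 0.22 and did not pass.

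With the trend of counts on gene length removed, 4 of the 7 risers passed (Cd247, Rasgrp1, Cblb and Dgkz), as did Cd5 and Ptpn6. Cd4 then had a log2 fold of 0.50, against 0.49 without this step, and an adjusted p of 0.0503 (0.0148 to 0.0503 over 8 alternatives). Plcg1 had 0.60 against 0.69 (adjusted p = 0.0870). Nfatc3 had 0.31 against 0.46 (adjusted p = 0.119). Over all genes tested, Spearman's rho of the Tox2 fold on gene length was 0.301 in Th0 and 0.125 in Tfh-like cells, a description across genes that share their libraries.

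Culture set apart 12 of the 40 genes. In Tfh-like cells, which had IL-6, Cd2, Malt1, Themis, Nfatc2, Icos and Cd28 rose and Sla, Rasgrp1, Dgkz, Nfatc1, Sh2d2a and Zap70 fell relative to Th0. The 6 that rose include both costimulatory receptors of the list and the adhesion receptor CD2. The 6 that fell include the kinase Zap70 and 2 of the 10 restraining genes. By edgeR's quasi-likelihood test over both viruses 14.3% of all genes rose and 9.96% fell, against 6 and 6 of the 40 (15% each). At an unadjusted p under 0.05 there were 19 of the 40 and 4120 of all genes. Rasgrp1 and Dgkz were the 2 genes that passed for both effects (22.2% of the 9 Tox2 calls and 16.7% of the 12 culture calls), and 21 passed for neither (52.5%). Over all genes tested 3.48% passed for both and 72.4% for neither. The sign of the culture fold was the same with both viruses in 33 of the 40 (82.5%) and in 76.4% of all genes.

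Medians of the culture fold were 0.03 with GFP and 0.07 with Tox2 on the log2 scale, against -0.01 and 0.00 over all genes. With GFP, 7 of the 40 genes were at least 1.5-fold higher in Tfh-like cells (Cd28, Icos, Cd2, Malt1, Nfatc2, Themis and Txk), against 14.0% of all genes, and 4 lower (Rasgrp1, Nfatc1, Sla and Dgkz), against 8.25%. With Tox2, 4 were higher (Cd2, Malt1, Nfatc2 and Themis), against 11.7% of all genes, and 4 lower (again Rasgrp1, Nfatc1, Sla and Dgkz), against 7.19%. The shares of the 40 were thus near those of all genes. In all, 23 of the 40 (57.5%) were not called 1.5-fold apart in any of the 4 pairs, against 64.5% of all genes. The culture pairs use the same 4 libraries as the Tox2 pairs, so the effects are not independent evidence of each other.

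**Figure D4:**
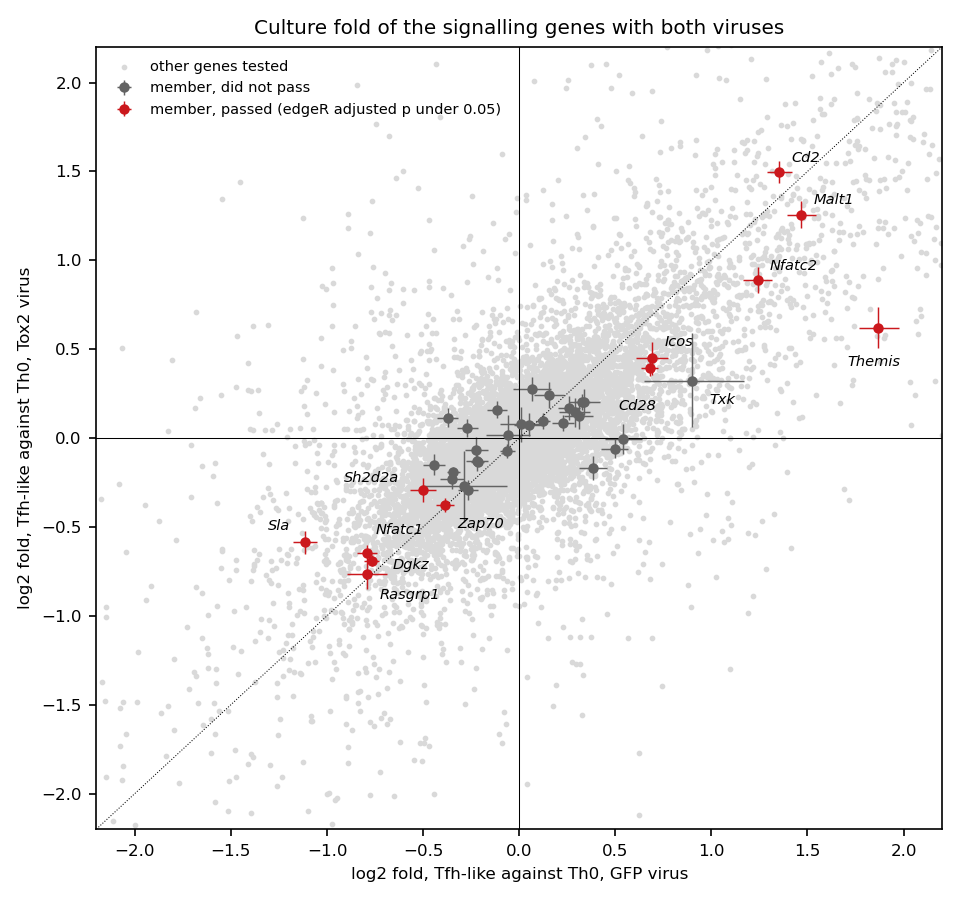
Log2 fold of Tfh-like against Th0 cells with the GFP virus (x axis) and with the Tox2 virus (y axis) for the 40 signalling genes, over other genes tested in grey; bars are 95% counting intervals, red marks genes that passed for culture, and grey genes beyond the axes are not drawn. Cd2, Malt1 and Nfatc2 lie at the upper right with both viruses, and Rasgrp1, Dgkz, Nfatc1 and Sla at the lower left.

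Cd2, the adhesion receptor for CD48, had 2660 (GFP) and 2656 (Tox2) counts in Th0 culture, then 6604 and 7220 in Tfh-like culture. Malt1, the protease of the CBM complex, had 1986 against 1973 counts in Th0 culture and 5337 against 4547 in Tfh-like culture. In both genes each Tfh-like library stood above both Th0 libraries. Cd2 rose 2.69-fold (log2 fold 1.43, SE 0.10, edgeR adjusted p = 0.000397) and Malt1 2.57-fold (1.36, SE 0.11, adjusted p = 0.000519). Bcl10, Malt1's partner, had a log2 fold of -0.02.

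Cd28 and Icos lie 205 kb apart on chromosome 1 (Cd28 at 60716800 to 60773359 and Icos at 60977927 to 61000320, GRCm38). Cd28 rose 1.45-fold in Tfh-like cells (log2 fold 0.54, SE 0.11, edgeR adjusted p = 0.0160) and Icos 1.48-fold (0.57, SE 0.11, adjusted p = 0.0125). With GFP the log2 folds were 0.68 and 0.69, and with Tox2 0.39 and 0.45. For both genes the count was lower in the Tox2 library of each culture, a difference that did not pass. Cd28 over Icos in FPKM stayed between 2.03 and 2.22 in the 4 libraries.

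The NFAT factors, which share calcium as their switch, diverged between the cultures. Nfatc2 had 2082 (GFP) and 2487 (Tox2) counts in Th0 culture, and 4780 and 4439 in Tfh-like culture. It rose 2.09-fold (log2 fold 1.06, SE 0.12, edgeR adjusted p = 0.00185), while Nfatc1 fell by 0.72 on the log2 scale (SE 0.10, adjusted p = 0.00399). Nfatc3 did not pass for culture (log2 fold 0.06). Nfatc1 over Nfatc2 in FPKM was 5.53 in Th0 and 1.35 in Tfh-like cells with GFP, and 5.99 and 2.07 with Tox2. Of the summed FPKM of the 3 factors, Nfatc1 held 72.1% and 47.4% with GFP, and 71.8% and 53.9% with Tox2. It remained the most abundant of the 3 in all 4 libraries.

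Rasgrp1 fell by 0.78 in Tfh-like cells on the log2 scale (SE 0.10, edgeR adjusted p = 0.00277) and Dgkz fell by 0.73 (SE 0.09, adjusted p = 0.00305). Sla, the gene of the adaptor SLAP that promotes loss of the receptor from the surface, had 6641 (GFP) and 4980 (Tox2) counts in Th0 culture, then 2978 and 3197 in Tfh-like culture. It fell by 0.85 (SE 0.14, adjusted p = 0.00785), with a log2 fold of -1.11 (-1.18 to -1.05) with GFP and -0.59 (-0.65 to -0.52) with Tox2. For Tox2 it did not pass, with log2 folds of -0.46 in Th0 and 0.07 in Tfh-like cells. Zap70 fell by 0.38 (SE 0.09, edgeR adjusted p = 0.0307), alike with both viruses (-0.39 and -0.38).

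Themis rose in Tfh-like cells by a log2 fold of 1.25 (SE 0.27, edgeR adjusted p = 0.0195), unevenly: 1.87 (1.77 to 1.98) with GFP and 0.62 (0.50 to 0.74) with Tox2. Sh2d2a, the gene of the T-cell-specific adaptor TSAd, had 4640 (GFP) and 4040 (Tox2) counts in Th0 culture, then 3186 and 3173 in Tfh-like culture, and fell by 0.40 (SE 0.10, edgeR adjusted p = 0.0367). With DESeq2 in place of edgeR, Themis (adjusted p = 0.176) and Sh2d2a (0.0525) did not pass. Over 8 alternatives their adjusted p ran from 0.00348 to 0.176 and from 0.0119 to 0.0525. Txk had 191 (GFP) and 217 (Tox2) counts in Th0 culture, and 348 and 262 in Tfh-like culture. It was 1.87-fold higher in Tfh-like cells with GFP and 1.25-fold with Tox2, and did not pass (edgeR adjusted p = 0.0532).

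**Figure D5:**
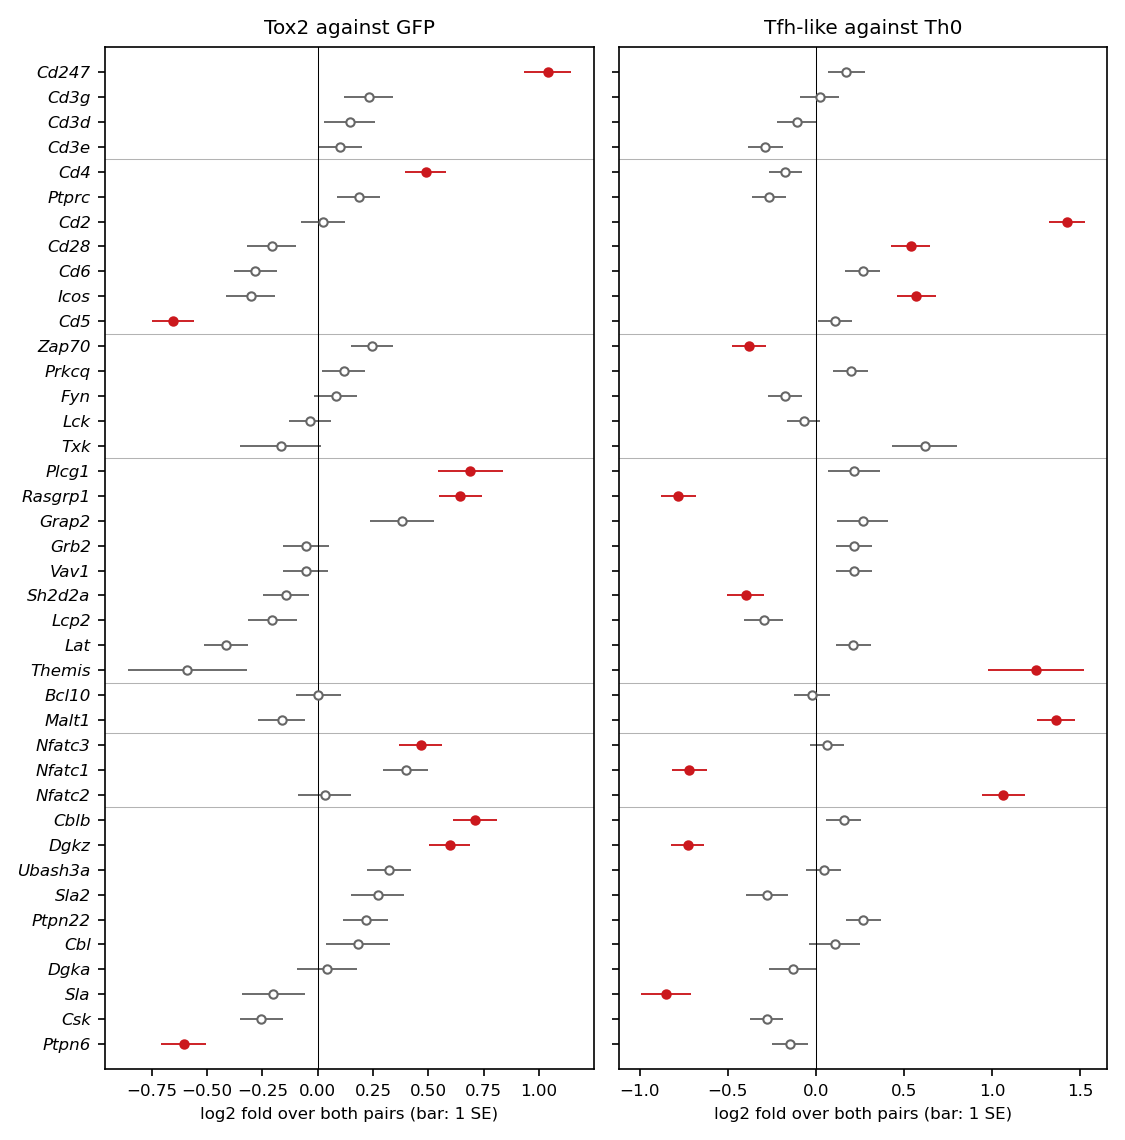
Log2 fold of the 40 signalling genes for Tox2 against GFP over both cultures (left) and Tfh-like against Th0 over both viruses (right), with 1 SE of the edgeR fit; filled red points passed at an adjusted p under 0.05 and lines separate the roles. Cd247 is highest at 1.04 and Cd5 lowest at -0.65 on the left, and Cd2 is highest at 1.43 and Sla lowest at -0.85 on the right.

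For Tox2, 31 of the 40 genes did not pass, and their log2 folds ran from -0.59 (Themis) to 0.40 (Nfatc1). For culture, 28 did not pass, from -0.30 (Lcp2, the gene of SLP-76) to 0.62 (Txk). The members not yet given with counts passed for neither effect. Ptprc, the gene of the tyrosine phosphatase CD45 that activates Lck, had 15167 (GFP) and 16918 (Tox2) counts in Th0 culture, then 11618 and 14261 in Tfh-like culture. Fyn had 5577 and 5915 in Th0, 4655 and 5204 in Tfh-like cells, and Prkcq 2525 and 2745, 2729 and 3125, again with GFP first. Both kinase genes had slightly positive Tox2 folds, of 0.08 and 0.12 on the log2 scale.

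Vav1, the gene of a signalling protein downstream of the receptor, had 2201 (GFP) and 2302 (Tox2) counts in Th0 culture, then 2611 and 2451 in Tfh-like culture. Grb2, the gene of an adaptor to the Ras activator SOS, had 2568, 2726, 3092 and 2865 in that order, and Lcp2 had 6168, 4999, 4405 and 4337. The first pair had log2 Tox2 folds of -0.06 and -0.05, and Lcp2 had -0.35 in Th0 and -0.06 in Tfh-like cells. Of the restraining genes, Csk had 6804 (GFP) and 5944 (Tox2) counts in Th0 culture, then 5487 and 4676 in Tfh-like culture, and the Tox2 library was the lower of each culture. Ptpn22 had 2292, 2889, 2816 and 3198, Ubash3a, the gene of a TCR-restraining protein, had 1360, 1717, 1330 and 1745, and Sla2, a relative of Sla, had 378, 469, 301 and 374 in the same order. In these 3 the Tox2 library was the higher of each culture, by log2 folds of 0.15 to 0.36. Of Sla2's exon bases 23.6% are shared with Rab5if on the opposite strand.

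Other genes of the same pathway were counted from a list apart from the 40. Of 44 other activating genes, 9 were higher and 5 lower with Tox2 at an unadjusted p under 0.05 in edgeR. At the adjusted threshold 4 rose and 2 fell, beside the 4.07% and 2.74% of all genes. The risers were Nck2, an adaptor (log2 fold 0.77, adjusted p = 0.0284), Itpr1 (0.76, 0.0129) and Itpr2 (0.73, 0.0399), which encode calcium release channels, and Stim1 (0.50, 0.0378), the calcium sensor of the endoplasmic reticulum. Those that fell were Hras (-0.62, 0.0288) and the adaptor gene Tespa1 (-0.59, 0.0386). Medians of the list were 0.10 in Th0 and -0.01 in Tfh-like cells. Of 22 other restraining genes, 5 rose and 0 fell with Tox2 in edgeR (11 higher and 2 lower at an unadjusted p under 0.05, beside 14.0% and 13.4% of all genes). The largest of these were Nedd4, a ubiquitin ligase, with 308 against 3043 counts in Th0 culture and 638 against 1978 in Tfh-like culture (GFP first; log2 fold 2.40, edgeR adjusted p = 0.0183), Pik3ip1 (0.77, 0.0195), an inhibitor of PI3 kinase, Ubash3b (0.67, 0.0167), a phosphatase gene, and Rasa3 (0.64, 0.0446), a Ras inactivator. Medians of the list were 0.15 and 0.22.

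By culture, 8 of the 44 activating genes rose and 3 fell in Tfh-like cells, beside 14.3% and 9.96% of all genes. The 4 largest rises were Tec (log2 fold 2.50, edgeR adjusted p = 0.000447), a kinase of Txk's family, Ppp3cc (1.88, 0.000191), a calcineurin subunit, Itpr1 (1.36, 0.000449) and Mapk3 (0.70, 0.00609), which encodes ERK1. The 3 that fell were Tespa1 (-0.71, 0.00751), Orai1 (-0.57, 0.00998), the calcium channel of the plasma membrane, and Map3k7 (-0.43, 0.0257). Of the 22 restraining genes 2 rose, Cish (1.30, 0.00127) and Ptpn2 (0.78, 0.00319), and 6 fell. The largest falls were Lax1 (-0.86, 0.00602), Rcan1 (-0.85, 0.00736), Ubash3b (-0.82, 0.00223) and Ptpn11 (-0.71, 0.00849). With GFP and Tox2 the medians were 0.16 and 0.12 for the activating list, and -0.23 and -0.02 for the restraining list. The genes of the TCR alpha and beta constant regions were not analysed here.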

How the data were processed

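RNA was measured in 4 libraries of CD4+ T cells, 1 per group. Whole-number read counts per gene were deposited by the authors without normalization, per the file headers and the values. The deposited tables also give FPKM for the same genes, which the authors computed, and the gene lengths in it equal those of merged GENCODE M21 exons within 0.1% for 35 of the 40 genes. Tools listed without role or order in the submitters' processing notes are MACS2, edgeR, Subread, featureCounts, Bowtie2 and Trim Galore 0.4.4, beside the build mm10. Neither strand setting nor annotation is given in the sources used here, so reads of overlapping genes on opposite strands cannot be told apart. Libraries were prepared and sequenced by a service company from Trizol-extracted RNA, per the labels' protocols. The files held 0 columns of other samples, and every listed gene had at least 0.658 CPM in its second-highest library.

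Genes that reached 1 CPM in at least 1 library (10960) were fitted with edgeR 4.0.16 (R 4.3.3; TMM scaling, quasi-likelihood F test, Benjamini-Hochberg adjustment over all of them, threshold 0.05) in an additive model of culture and virus. Its 1 residual degree of freedom is the difference of the Tox2 fold between the cultures, and p-values measure no spread between replicates. Pairs of libraries were compared as TMM-scaled CPM on the log2 scale (prior count 2) with exact 95% binomial intervals, which cover counting error only since reads lacking molecular identifiers can copy 1 molecule. Differences of 2 folds have intervals by the delta method. At these depths a count of 0 would allow up to 3 counts, and none of the 40 genes was near it. Levels of different genes were compared in FPKM, and ratios of FPKM carry the same counting error. Alternatives were DESeq2 1.42.0 and its size factors, total counts, limma-voom (limma 3.58.1), other CPM filters, other prior counts, and the removal of trends on length, and on GC content and length. The procedure was tested on simulated counts. Coordinates are from GENCODE M21 and promoter windows from RefSeq (GRCm38.p6).

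The 40 genes, the pathway and marker lists and the tests were chosen with earlier results of these data known. Named are Tox2, all 40 genes, with counts for those that passed, were called apart in a pair or had opposite folds called in the 2 pairs of an effect, and for the CD3 chains, Cd4, Cd28 and Lck. Of each other list up to 4 passing genes per effect and direction are given with folds, those with the largest log2 fold. For the genes induced by TCR signals, folds by culture are given only for genes that fell. Pou2f1, Zhx3, Gm9821, some markers and, beyond this rule, the counts of the remaining members were picked with their values in view.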

Additional observations from a re-analysis of the deposited data

Results flagged for a closer look

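In 8 cases the 2 folds of an effect pointed in opposite directions, each with a counting interval on its own side of 0. With 1 library per group none of these differences was tested. The Tox2 fold on the log2 scale went from Th0 to Tfh-like cells as follows: Nfatc2 had 0.21 and -0.14, a difference of -0.35, Cbl had 0.46 and -0.09, a difference of -0.55, and Dgka had -0.20 and 0.28, a difference of 0.49. The fold of Tfh-like against Th0 went from GFP to Tox2 in this way for Cd3d (-0.27 and 0.06, a difference of 0.33) and Cd3g (-0.12 and 0.16, a difference of 0.28). The same holds for Plcg1 (0.50 and -0.06, a difference of -0.56), Cbl (0.38 and -0.17, a difference of -0.55) and Dgka (-0.37 and 0.11, a difference of 0.49). For Cbl and Dgka both entries are the same difference between the same 4 libraries, read in 2 ways. All 8 are under 1.5-fold in size.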

How the results depend on the processing

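Over 8 alternatives (DESeq2, DESeq2 size factors, total counts, limma-voom, no CPM filter, a CPM of at least 5, length trend removed, and GC and length trends removed, the last chosen after seeing the data), 6 of the 9 Tox2 calls among the signalling genes and 10 of the 12 culture calls passed in each. No effect over both pairs changed sign where it had passed. Genes passing for Tox2 were 746, and 1193 with total counts, 492 with DESeq2, 339 with the length trend removed and 395 with GC and length trends removed. Genes passing for culture were 2656, and 1609 with DESeq2. With total counts 1500 genes rose and 1649 fell in Tfh-like cells, against 1564 and 1092. Of the 40, 4 in place of 7 rose with Tox2 with the length trend removed, and 10 in place of 6 fell in Tfh-like cells with total counts. At a fold of 2 in place of 1.5, the members called apart were 0 in place of 7 for Tox2 in Th0, 2 in place of 6 for Tox2 in Tfh-like cells, 5 in place of 11 for culture with GFP and 2 in place of 8 for culture with Tox2. The share of all genes called apart at a fold of 2 is not given here, so the members' counts at that fold cannot be set against it. For none of these settings was the cause of a changed count tested. No paired analysis was possible because the labels carry no replicate numbers and each group has 1 library. Leaving out a library would leave 0 residual degrees of freedom and was not run. The lowest count of a signalling gene was 191 (Txk in Th0 with GFP), and whether depth limited any call was not tested.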

Other observations

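Genes that TCR signals are known to induce give a readout apart from the machinery itself. Of 14 such genes, 2 rose and 1 fell with Tox2 in edgeR, beside 4.07% and 2.74% of all genes. Nr4a1, the orphan nuclear receptor gene used as a reporter of TCR signals, had 7114 (GFP) and 10200 (Tox2) counts in Th0 culture, and 1946 and 3453 in Tfh-like culture, and rose with Tox2 (log2 fold 0.63, edgeR adjusted p = 0.0305). Its relative Nr4a2 rose as well (0.79, 0.0158). Irf4, a transcription factor whose level follows signal strength, had 5652 against 3224 counts in Th0 culture and 7632 against 3146 in Tfh-like culture, and fell (-1.09, 0.0102). In Tfh-like cells relative to Th0, 3 rose and 6 fell, beside 14.3% and 9.96% of all genes. Among the 6, Nr4a3 fell by 2.11 on the log2 scale (edgeR adjusted p = 0.000515), Nr4a1 by 1.67 (0.000383), Egr3 by 1.39 (0.00150) and Il2 by 1.34 (0.00650). The 3 that rose and the remaining ones that fell were Egr1, Egr2, Tnfrsf9, Tnfrsf4 and Cd40lg. The culture folds printed here are thus all of genes that fell, and those of the 3 that rose are not given. The median log2 Tox2 fold of the 14 was 0.01 in Th0 and 0.11 in Tfh-like cells, and the median culture fold was -0.03 with GFP and -0.17 with Tox2.

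Rasgrp1 and Dgkz, which act in opposite ways on diacylglycerol signals, kept a near constant ratio in all 4 libraries. Rasgrp1 over Dgkz in FPKM was 0.161 in Th0 with GFP (counting interval 0.154 to 0.168), 0.169 with Tox2 (0.163 to 0.176), 0.158 in Tfh-like with GFP (0.149 to 0.168) and 0.160 with Tox2 (0.153 to 0.168). Over the same libraries the scaled level of Rasgrp1 spanned 2.69-fold and that of Dgkz 2.50-fold. The pair was chosen after its values were seen, and nothing was tested. Dgkz over Dgka, by contrast, was 1.79 and 3.04 in Th0 and 1.36 and 1.74 in Tfh-like cells, with GFP first.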
